A study of Mus musculus with 4 samples.

Results

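Transcripts of the caspase-1, interleukin-18 and interleukin-1 axis were compared between the sub-lines 4T1-A and 4T1-S of the mouse mammary carcinoma line 4T1. The axis was taken as 10 genes, Casp1, Casp4, Il18, Il1a, Il1b, Il1rn, Il33, Pycard, Nlrp3 and Aim2, out of 27670 genes on the array. They were found by gene name or RefSeq accession and had 13 of the 41174 probes. The genes were chosen with the difference between the sub-lines already known, so their differences are given as a description and without a test.

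4T1 is a transplantable line from a spontaneous mammary tumour of a BALB/c mouse. Both sub-lines have 4T1 as their labelled parent, and no treatment, genotype or time is given in the labels for either. Each was measured on 2 one-colour Agilent arrays of total RNA, and the title of the series presents 4T1-S as the immunogenic one. Whether the arrays of 1 sub-line hold separate cultures is not given in the labels, and the spread behind each p-value is that between these arrays, which may be technical. The 4 arrays shared 1 slide, with 4T1-A in positions 1 and 2 and 4T1-S in positions 3 and 4, so position and sub-line cannot be told apart. Between 54.9 and 59.2 percent of spots were well above background, and the number of arrays limits the precision. All 5 markers of mammary epithelium examined (Krt8, Krt18, Krt19, Epcam and Cdh1) were well above background on every array, and the last 3 of them fell in 4T1-S (Krt19 -2.61, Epcam -3.78 and Cdh1 -1.11 on the log2 scale). The part of this epithelial difference in the differences that follow was not tested.

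Inflammasomes are cytosolic complexes in which a sensor such as Nlrp3 or Aim2 recruits the adaptor ASC, encoded by Pycard, and through it caspase-1. Active caspase-1 cuts the precursors of interleukin-18 and interleukin-1 beta into their secreted forms and cuts gasdermin D, which then forms membrane pores. In mouse, Casp4 encodes caspase-11, which responds to cytosolic lipopolysaccharide. Interleukin-1 alpha and interleukin-33 act as alarmins released from damaged cells, and Il1rn encodes an antagonist of the interleukin-1 receptor.

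Both inflammatory caspases and 2 of the cytokines, Il18 and Il1a, were lower in 4T1-S, Aim2 and Il1rn were higher, and Pycard and Nlrp3 had overlapping values. Il1b and Il33 were not well above background on any array. Levels are intensities divided by the array's 75th percentile, so that a level of 1 lies at that percentile, and they are compared within a probe only. Differences are log2 values of 4T1-S minus those of 4T1-A ± standard error (SE, n = 2 arrays per sub-line). Over all 16160 genes tested the median difference was 0.13 (-0.16 where arrays were scaled to their median). Differences of that size therefore carry no direction. With no filter on background the median was 0.19. The median of the authors' deposited ratios was 0.078 and 0.076 in 4T1-A against 0.098 and 0.091 in 4T1-S. Dim values thus tended to read higher in 4T1-S. The rises of the dim genes Aim2, Il1rn, Naip2, Il1rl2 and Saa3 were not compared with dim genes alone.

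**Figure D1:**
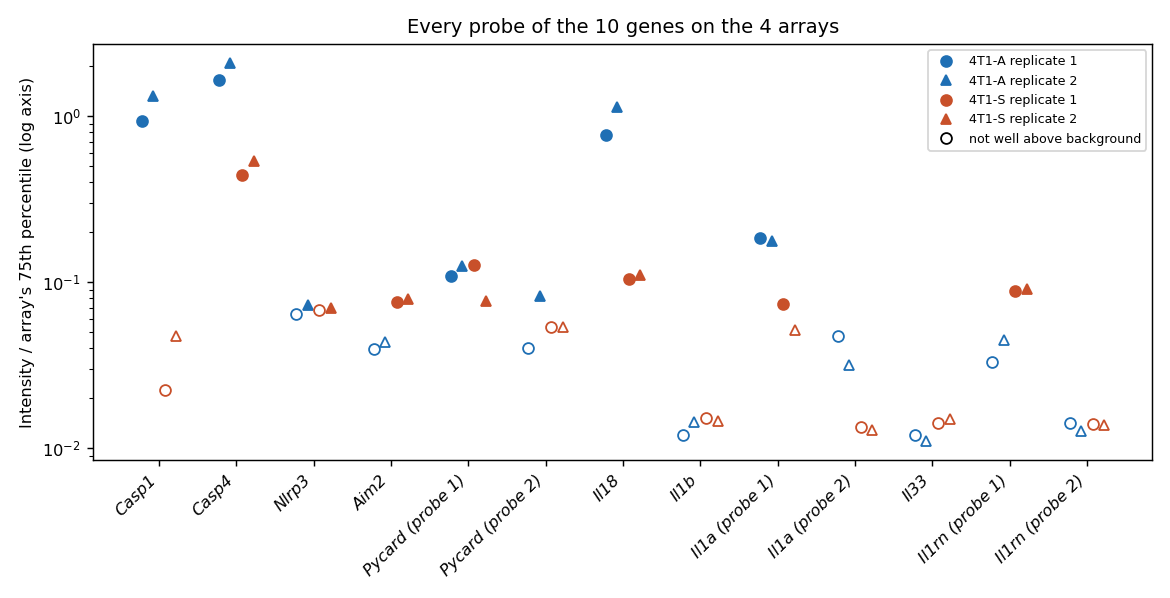
Intensity of every probe of the 10 genes over the array's 75th percentile (log axis), by array. Filled symbols are well above background and open symbols are not. For Casp1, Casp4 and Il18 both arrays of 4T1-A lie above both of 4T1-S, with Casp1 at 0.937 and 1.32 against 0.0222 and 0.0476.

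The probe of Casp1, the protease at the centre of the pathway, read 0.937 and 1.32 in 4T1-A replicates 1 and 2 and 0.0222 and 0.0476 in 4T1-S replicates 1 and 2. In scanner units these were 438 and 763 against 9.003 and 23.7. Both 4T1-A arrays were high, both 4T1-S arrays were not well above background, and the sub-lines did not overlap. With the 4T1-S arrays set at their lowest signals well above background (0.0596 and 0.0550), the transcript was 19.4-fold lower in 4T1-S. This figure leaves out the spread between arrays and holds for the main processing only. The floor is the lowest such signal of any probe and not a detection limit. Nlrp3, for example, read 0.0673 on 4T1-S replicate 1 and was not well above background. A higher floor would give a smaller fold. The measured difference was -5.10 ± 0.42, and the replicates of 4T1-S lay further apart (SD 0.78) than those of 4T1-A (0.35). With normexp background correction the difference was -2.65, which is less than 19.4-fold. Less RNA per cell and fewer expressing cells cannot be told apart in bulk RNA.

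Casp4, the caspase of non-canonical inflammasomes, read 1.65 and 2.09 in 4T1-A against 0.442 and 0.537 in 4T1-S. All 4 arrays were well above background and the sub-lines did not overlap. Its difference was -1.93 ± 0.21, or 3.81-fold lower in 4T1-S, and it lay between -2.22 and -1.61 under every processing tried.

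Il18, which encodes a cytokine activated by caspase-1, was spotted 10 times on each array. The mean over spots was 0.774 and 1.13 in 4T1-A against 0.104 and 0.110 in 4T1-S. Every spot was well above background, and each 4T1-A spot exceeded each 4T1-S spot. Spots ranged from 0.678 to 1.26 over the 4T1-A arrays and from 0.0796 to 0.146 over the 4T1-S arrays. The coefficient of variation between spots was 8.48 and 6.02 percent in 4T1-A and 17.8 and 14.9 percent in 4T1-S. Spots of an array share its RNA, so they show the precision of the reading and not the spread between cultures. The difference was -3.13 ± 0.24, an 8.78-fold lower level in 4T1-S, and it was -1.93 with normexp.

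**Figure D2:**
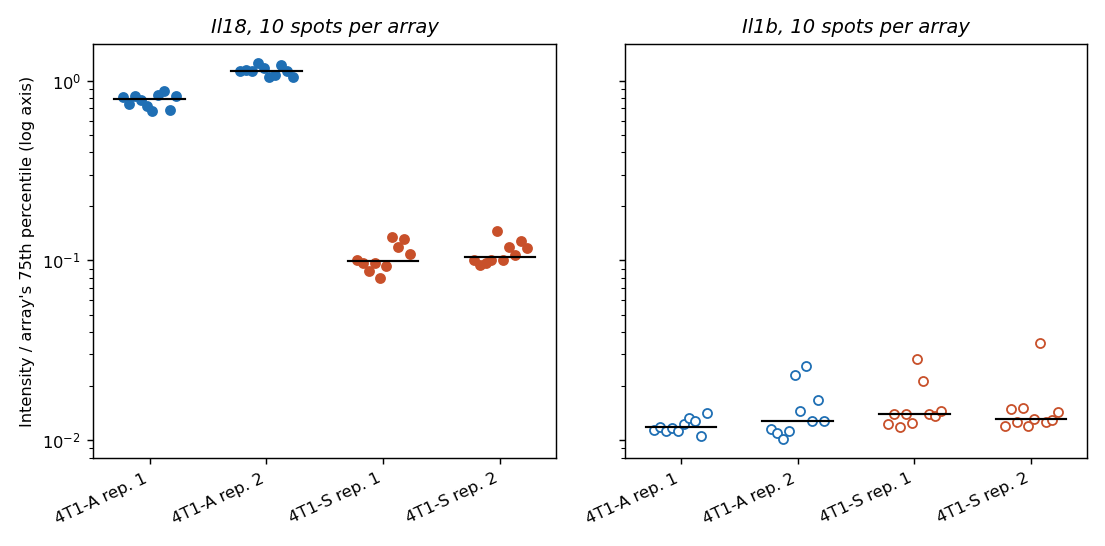
Intensity over the array's 75th percentile (log axis) of the 10 spots of Il18 and of Il1b on each array, with the median as a bar. Open circles are spots not well above background. Il18 spots of 4T1-A lie above those of 4T1-S on both arrays, and all Il1b spots are open.

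Il1b, the other cytokine matured by caspase-1, had the same number of spots, and 0 of 10 was well above background on each array. Its means were 0.0120 and 0.0142 in 4T1-A against 0.0151 and 0.0146 in 4T1-S, and on 3 arrays most of its spots held the surrogate value that the scanner software writes for low signals. No fold is given for it.

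Il1a, the alarmin form of interleukin-1, read 0.183 and 0.178 in 4T1-A against 0.0742 and 0.0516 in 4T1-S on its brighter probe, which was not well above background on 4T1-S replicate 2. The 4T1-A arrays were close together and above both 4T1-S arrays. The difference was -1.55 ± 0.23, a measured 2.92-fold lower level. It moved to -0.35 with normexp, the widest relative change of any of the 4 lower genes. A second probe read 0.0471 and 0.0314 against 0.0134 and 0.0129 and was well above background on no array. Il33, a nuclear alarmin of epithelial cells, was well above background on no array, at 0.0120 and 0.0110 in 4T1-A against 0.0141 and 0.0149 in 4T1-S.

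Il1rn, which encodes the receptor antagonist, went the other way from Il1a, which encodes an agonist of the same receptor. Its brighter probe read 0.0332 and 0.0445 in 4T1-A, not well above background, against 0.0883 and 0.0913 in 4T1-S. The sub-lines did not overlap (measured difference 1.22 ± 0.21). With the 4T1-A arrays set at their lowest signals well above background (0.0511 and 0.0488), the level in 4T1-S was 1.80-fold higher. That floor is no detection limit, since Naip2 read 0.0601 and 0.0616 in 4T1-A and was not well above background. A higher floor would give less than 1.80-fold. The difference was 0.49 with normexp and 0.64 with the mean of the probes, both less than 1.80-fold. The second probe lay between 0.0127 and 0.0141 and was well above background on no array, so the rise rests on 1 probe.

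Among the sensors, Aim2, a receptor of cytosolic DNA, read 0.0396 and 0.0433 in 4T1-A, not well above background, against 0.0762 and 0.0786 in 4T1-S. The pairs of arrays did not overlap (measured difference 0.90 ± 0.16). With the 4T1-A arrays set at their lowest signals well above background, the level in 4T1-S was 1.55-fold higher. As for Il1rn, a higher floor would give a smaller fold. The difference was 0.43 with normexp, 0.55 with quantile normalization and 0.61 with scaling to the median, all less than 1.55-fold. Nlrp3, a sensor of membrane and ion disturbance, read 0.0642 and 0.0722 in 4T1-A against 0.0673 and 0.0700 in 4T1-S. The 4T1-S values lay between those of 4T1-A, and only replicate 2 of each sub-line was well above background. The difference of Nlrp3 was 0.01 ± 0.17, between -0.32 and 0.29 under the processing tried.

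Pycard, which encodes the adaptor ASC, read 0.108 and 0.125 in 4T1-A against 0.127 and 0.0765 in 4T1-S on its brighter probe. The arrays overlapped, with 4T1-S replicate 1 highest and replicate 2 lowest. Its difference was -0.24 ± 0.29, and 0.13 without 4T1-S replicate 2. A dimmer probe read 0.0400 and 0.0824 against 0.0533 and 0.0539 and was well above background only on 4T1-A replicate 2.

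**Figure D3:**
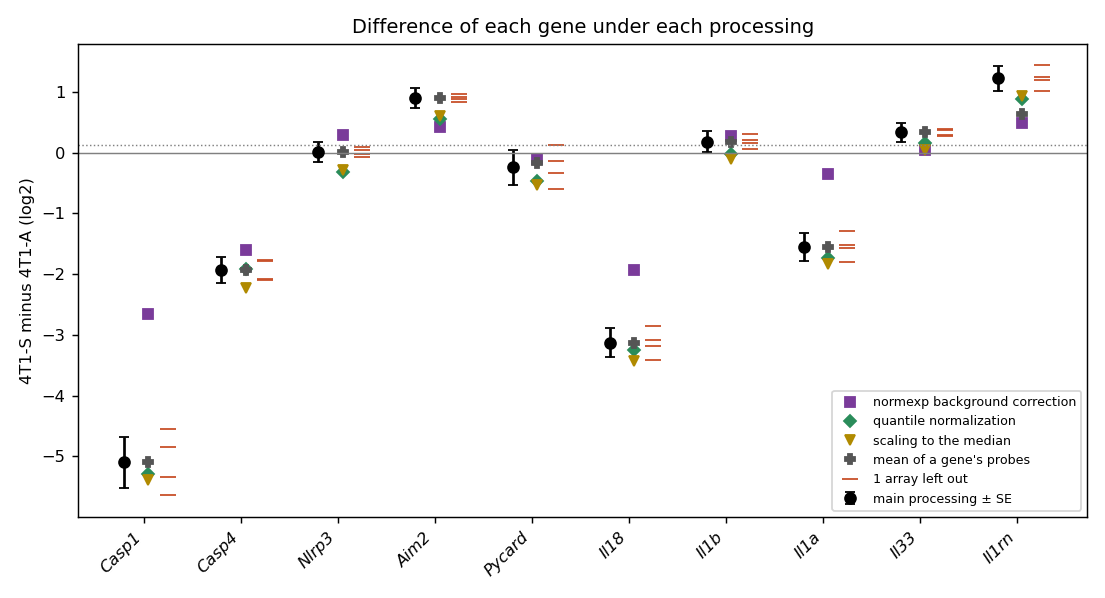
Difference of each of the 10 genes, 4T1-S minus 4T1-A (log2), for the brighter probe. Black points are the main processing with SE, coloured symbols the alternatives, dashes the values with 1 array left out, and the dotted line the median of all genes tested (0.13). Casp1 ran from -5.65 to -2.65 and Il18 from -3.43 to -1.93, and normexp gave the smallest size for Casp1, Casp4, Il18 and Il1a.

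Of the 10 genes, 7 passed the filter for testing, which asks for signal well above background on 2 of 2 arrays in 1 sub-line or both. Of those 7, Aim2 and Il1rn passed it only through 4T1-S, and Casp1 and Il1a only through 4T1-A. Limma, with Benjamini-Hochberg adjustment over all genes tested, called 6 of the 7, against 7.01 percent of all genes tested, with 4 lower (3.01 percent of all genes) and 2 higher (4 percent). Since the genes were chosen on this comparison, nothing is read from that count. The arrays of the sub-lines did not overlap for 6 of the 7 either, which held for 59.1 percent of all genes tested.

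Many genes of this axis are best known from macrophages, so markers of other cell types were read on the same arrays. Of 8 macrophage and monocyte markers, Adgre1, Itgam, Mrc1 and Tyrobp were not well above background on any array, Ptprc was on 1 array, and Csf1r, Cd68 and Lyz2 were on all. The summed level of the 8 was 0.830 and 0.946 in 4T1-A against 0.791 and 0.773 in 4T1-S. Cd68 was the largest single part of the sum on every array, and more than all others together only in 4T1-A. Cd68 differed by -0.70, while Csf1r (0.37), Lyz2 (0.42) and the markers at or near background had differences above 0, and none of the 3 that were tested passed. Their part in the differences of Casp1, Il18 and Il1a was not tested. The summed level of 5 lymphocyte markers was 0.289 and 0.271 against 0.328 and 0.360, with Cd3g and Ms4a1 not well above background on any array. For 4 fibroblast markers it was 0.447 and 0.672 against 0.948 and 0.955, with Lum below on every array. Most of the fibroblast sum was Pdgfra, which differed by 0.89 and did not pass. Dcn was well above background on 1 array of each sub-line, and Col3a1 on only 1 of the 4T1-A arrays. For 4 endothelial markers the summed level was 0.1005 and 0.103 against 0.210 and 0.159. Pecam1, Cdh5 and Kdr were below on every array and Tek was well above background on 1 array only. That sum is nearly all signal not well above background and gives no direction.

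The promoter windows of the 4 genes that were lower in 4T1-S are shown because these genes moved in the same direction. Each window runs from 250 bases before to 50 after the annotated start, 5′ to 3′ on the gene's strand, from RefSeq on GRCm38.p6, an assembly of C57BL/6J and not of the BALB/c strain of 4T1. Capitals mark matches, on either strand, to any of 5 motifs. GAAANNGAA stands for an interferon response element, TTCNNNGAA for a STAT site and GGNNTTTCC for a kappaB site. The AP-1 site was searched as TGANTCA. The letters of the TATA box were TATAAA. Matches in a window did not overlap. The windows lie at chr9:5298267-5298566 (+) for Casp1, chr9:5308599-5308898 (+) for Casp4, chr9:50554450-50554749 (+) for Il18 and chr2:129309923-129310222 (-) for Il1a.
Casp1: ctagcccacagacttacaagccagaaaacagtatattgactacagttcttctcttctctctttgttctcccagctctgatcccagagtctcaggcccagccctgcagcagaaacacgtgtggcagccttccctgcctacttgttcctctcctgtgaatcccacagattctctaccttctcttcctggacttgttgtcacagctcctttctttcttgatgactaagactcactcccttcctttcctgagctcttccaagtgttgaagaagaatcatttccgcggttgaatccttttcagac
Casp4: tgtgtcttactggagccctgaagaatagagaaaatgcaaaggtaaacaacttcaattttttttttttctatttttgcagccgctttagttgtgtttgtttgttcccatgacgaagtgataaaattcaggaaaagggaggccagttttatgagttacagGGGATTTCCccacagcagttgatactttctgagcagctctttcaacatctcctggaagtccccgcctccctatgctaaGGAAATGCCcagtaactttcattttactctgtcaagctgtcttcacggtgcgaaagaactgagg
Il18: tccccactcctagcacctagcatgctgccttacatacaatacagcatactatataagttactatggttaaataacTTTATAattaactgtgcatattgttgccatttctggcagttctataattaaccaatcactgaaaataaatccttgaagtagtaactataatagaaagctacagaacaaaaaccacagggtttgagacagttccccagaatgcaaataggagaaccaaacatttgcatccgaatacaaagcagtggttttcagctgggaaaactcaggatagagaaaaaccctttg
Il1a: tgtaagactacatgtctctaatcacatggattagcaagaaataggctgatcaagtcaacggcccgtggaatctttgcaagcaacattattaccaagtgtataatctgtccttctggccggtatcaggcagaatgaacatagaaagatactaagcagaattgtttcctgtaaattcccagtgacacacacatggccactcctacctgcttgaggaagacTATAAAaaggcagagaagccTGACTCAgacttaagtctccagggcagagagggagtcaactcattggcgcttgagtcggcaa

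The window of Casp1 held 0 matches. That of Casp4 held 2 kappaB forms, 92 bases before the start and, on the other strand, 14 bases before it. Casp4 has another annotated start, from which the same matches lie 103 and 25 bases before. Il1a had a TATA box form 32 bases and an AP-1 form 12 bases before its start, and Il18 had only a TATA box form on the other strand, 175 bases before the start. The interferon and STAT forms were in the windows of 0 of the 10 genes, and in 8.56 and 8.30 percent of the 32851 windows of the table. The kappaB form was in windows of 3 genes, Casp4, Nlrp3 and Il1rn, and in 5.82 percent of all windows, and the AP-1 form in those of Il1a and Il1rn and in 7.81 percent. The TATA form was in windows of 5 genes (Il18, Il1b, Il1a, Il33 and Il1rn) and in 13.6 percent. Some genes have more than 1 window, and a match is a description of letters only.

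Casp1, Casp4 and Il18 are all annotated on chromosome 9, and Casp1 and Casp4 are immediate neighbours. The next gene beyond Casp4 is Casp12, another caspase of the same cluster, whose difference of -0.74 ± 0.25 did not pass (limma, adjusted p = 0.108). None of the 5 annotated genes on the other side of Casp1 had a probe by name. Of the 5 genes on either side of Il18, 7 were tested. Plet1, which encodes a surface protein of placental and epithelial progenitor cells, fell and 6 did not pass. Of all genes tested, 7.01 percent were called and 3.01 percent were called lower. Plet1 read 11.7 and 14.2 in 4T1-A against 3.50 and 4.49 in 4T1-S (-1.70 ± 0.21, limma adjusted p = 0.00374), and its second probe gave -1.36. Its call was lost with no filter on background (adjusted p = 0.0558). The genes directly beside Il18 were Bco2, not well above background on any array, and Tex12, which differed by 0.47 ± 0.18 and did not pass. Tex12 met the background filter only through 4T1-S, where it read higher. Sdhd, a subunit of mitochondrial complex II and the second gene on the Tex12 side, differed by -0.18 ± 0.20 and did not pass.

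**Figure D4:**
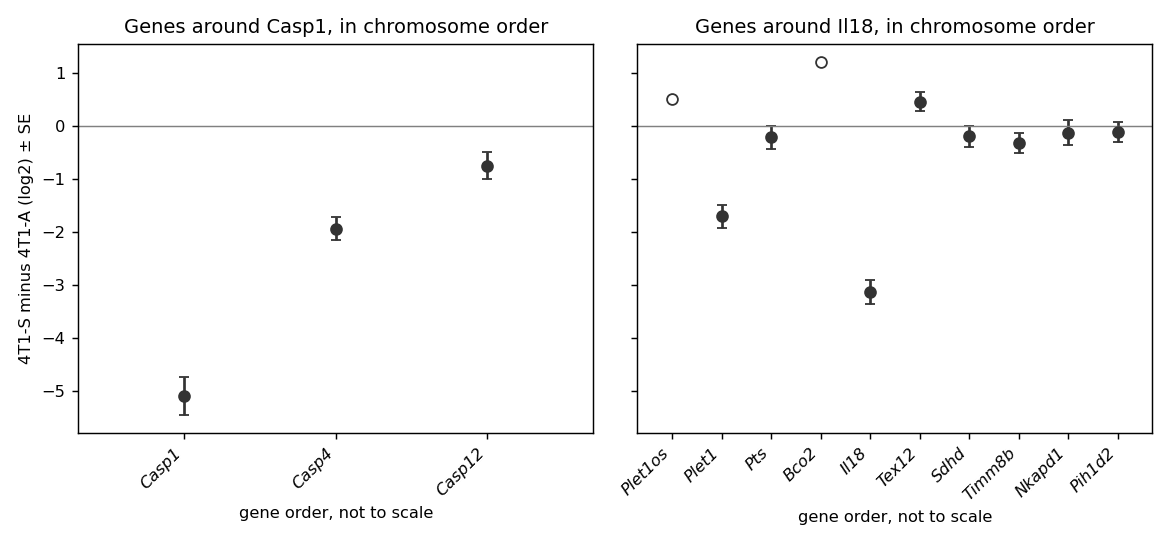
Difference, 4T1-S minus 4T1-A (log2), of the genes with a probe around Casp1 and around Il18 in reference gene order, with the SE of the fit over genes. Open circles were not tested. Casp1, Casp4 and Casp12 stand at -5.10, -1.93 and -0.74, and beside Il18 only Plet1 lies below -1 (-1.70).

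The genes whose values over the 4 arrays, centred on their mean, lay nearest to those of Casp1 were Slco4a1, Nipal2, Gca, Slc18b1 and Tspan7, by Euclidean distance on the log2 scale. Like Casp1, Slco4a1, Slc18b1 and Tspan7 were not well above background on either 4T1-S array and Gca was on 1, so their order has no meaning. For Il18 they were Tenm4, Btbd11, Rnf128, Emilin2 and Lnx1, at distances of 0.18 to 0.33, of which Btbd11 and Emilin2 were not well above background in 4T1-S. These are likenesses over 4 arrays of 2 sub-lines, chosen for that pattern. Nipal2 read -4.61 and Tenm4 -3.28 as differences.

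The wider pathway was described by 83 further genes in 6 lists, of which 76 had a probe by name and 62 were tested. Of these, 5 rose and 2 fell, which is 11.3 percent against 7.01 percent of all genes tested, and their median difference was 0.16 against 0.13. At an unadjusted limma p under 0.05 there were 24 of the 62, beside 4637 of all 16160 genes tested. The filter was passed through 4T1-S alone by 4 of the 62, Naip2 among them, and through 4T1-A alone by 1. Of the 7 called genes, 4 were response genes of interleukin-1. Leaving out 4T1-S replicate 1 left 4 calls, and leaving out replicate 2 left 2. Normexp gave 2, and so did testing with no filter on background.

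**Figure D5:**
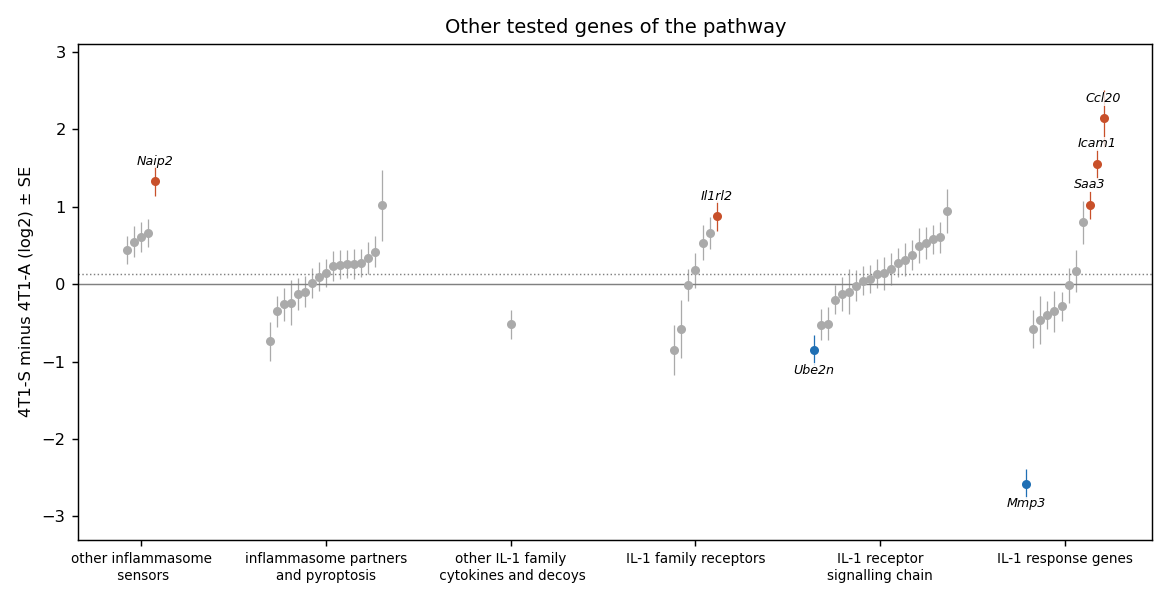
Difference, 4T1-S minus 4T1-A (log2 ± SE), of the 62 tested genes in 6 lists. Orange marks genes called higher, blue genes called lower, grey genes not called, and the dotted line the median of all genes tested (0.13). Only Naip2, Il1rl2, Ccl20, Icam1, Saa3, Ube2n and Mmp3 are coloured.

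Among 11 other inflammasome sensors on the array, 5 were tested. Of these, Naip2, Nlrp9b and Nlrp10 passed the filter only through 4T1-S, where they read higher, so no median is given and nothing is read from the count of 1 called higher (20 percent against 7.01 percent of all genes tested) and 4 not called. Naip2, a sensor of bacterial secretion system proteins that acts with Nlrc4, read 0.0601 and 0.0616 in 4T1-A, not well above background, against 0.141 and 0.167 in 4T1-S. Its level in 4T1-S was a measured 2.52-fold higher (difference 1.33 ± 0.19, limma adjusted p = 0.00689), a call that is not independent of the filter. The difference of Naip2 was 0.645 with normexp. Naip genes are close copies of each other, so the source of this signal is uncertain, and Nlrc4 itself and Naip1, Naip5 and Naip6 were not well above background on any array. Nlrp6, above background on all arrays, differed by 0.61 ± 0.19 and did not pass. The call of Naip2 was lost with normexp (adjusted p = 0.0609), with no filter on background (0.0585) and without 4T1-S replicate 2 (0.0804).

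In the list of inflammasome partners and pyroptosis genes, limma called 0 of 17 tested (7.01 percent of all genes tested were called). The median difference was 0.14. At an unadjusted p under 0.05 there was 1 of the 17, beside 4637 of all 16160 genes tested. Gsdmd, which encodes the pore protein cut by caspase-1, differed by 0.25 ± 0.18. Txnip, a thioredoxin-binding protein linked to Nlrp3 activation, had the highest difference of the list (1.01 ± 0.46) and did not pass (adjusted p = 0.190). Ddx3x, an RNA helicase, differed by 0.02 ± 0.20. P2rx7, the ATP-gated channel that triggers Nlrp3 in macrophages, was well above background on no array.

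Of the IL-1 family receptors, 7 were tested, 1 rose and 6 did not pass. That is 14.3 percent called against 7.01 percent of all genes tested, with a median difference of 0.18. Il1rl1 met the background filter only through 4T1-S and Il1r2 only through 4T1-A, where each read higher. Il1rl2, the receptor for interleukin-36, read 0.0580 and 0.0678 in 4T1-A against 0.122 and 0.109 in 4T1-S (0.88 ± 0.19, limma adjusted p = 0.0389). Its other probe, well above background on no array, gave 1.23. The receptor chain of interleukin-1, Il1r1, differed by 0.54 ± 0.22 and its partner Il1rap by 0.18 ± 0.23. The decoy receptor Il1r2 differed by -0.85 ± 0.33, and Sigirr, an inhibitory receptor, by -0.01 ± 0.21. None of these 4 passed. Il18r1, the binding chain of the interleukin-18 receptor, was well above background on no array, while Il18rap, its accessory chain, differed by -0.58 ± 0.37. Il18bp, the soluble decoy of interleukin-18 and the 1 tested gene of the other cytokines and decoys, differed by -0.52 ± 0.19 and did not pass. The call of Il1rl2 was lost with normexp (adjusted p = 0.112), quantile normalization (0.138), scaling to the median (0.121), no filter on background (0.109), and on leaving out 4T1-S replicate 1 (0.176), 4T1-S replicate 2 (0.150) or 4T1-A replicate 1 (0.148).

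Downstream of the receptors, 20 genes of the signalling chain were tested, 0 rose, 1 fell and 19 did not pass, which is 5 percent called against 7.01 percent of all genes tested (median difference 0.14). Ube2n, the ubiquitin-conjugating enzyme that works with Traf6, read 2.22 and 2.56 in 4T1-A against 1.38 and 1.27 in 4T1-S (-0.85 ± 0.19, limma adjusted p = 0.0399). Another of its probes, above background on every array, gave -0.19, and the mean of its probes ended the call (adjusted p = 0.0524). The call was also lost with normexp (0.0505), quantile normalization (0.0538), no filter on background (0.108) and on leaving out 4T1-S replicate 1 (0.146), 4T1-S replicate 2 (0.184) or 4T1-A replicate 2 (0.109). Traf6 differed by 0.94 ± 0.28 and Rela, an NF-kappaB subunit, by 0.07 ± 0.18, and neither passed.

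Of 12 tested genes known to respond to interleukin-1, 3 rose, 1 fell and 8 did not pass, with a median difference of -0.15. That is 33.3 percent called against 7.01 percent of all genes tested, in a list of few genes. Ccl20, a chemokine for Ccr6-bearing cells, read 0.101 and 0.134 in 4T1-A against 0.341 and 0.768 in 4T1-S (2.14 ± 0.36, limma adjusted p = 0.0148). Icam1, a leukocyte adhesion molecule, read 0.418 and 0.393 against 1.09 and 1.31 (1.55 ± 0.19, limma adjusted p = 0.00351), and its other probe, well above background on only 1 array, gave 1.196. Saa3, an acute-phase protein, read 0.114 and 0.115 against 0.238 and 0.228 (1.03 ± 0.18, limma adjusted p = 0.0173). In these 3 genes both 4T1-S arrays were above both 4T1-A arrays. Mmp3, a matrix metalloproteinase, read 8.73 and 9.07 in 4T1-A against 1.54 and 1.45 in 4T1-S (-2.58 ± 0.18, limma adjusted p = 1.72e-04). The chemokine Cxcl1 differed by -0.59 ± 0.25 and Tnfaip3, a feedback inhibitor of NF-kappaB, by -0.02 ± 0.22, and neither passed. Cxcl2 and Il6 were not well above background on any array. The calls of Ccl20 (adjusted p = 0.0617) and Saa3 (0.116) were lost without 4T1-S replicate 2, and that of Saa3 also without 4T1-S replicate 1 (0.115). Normexp ended those of Ccl20 (0.0525) and Saa3 (0.0800), no filter on background those of Ccl20 (0.109) and Saa3 (0.0765), and scaling to the median that of Saa3 (0.0614), while Icam1 and Mmp3 kept theirs in all 11 alternatives.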

How the data were processed

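Cy3-labelled RNA was measured on one-colour arrays, 2 for each of 4T1-A and 4T1-S. Spot intensity was, per the file headers, extracted with Agilent Feature Extraction 9.1, with background subtracted as a fitted spatial surface and surrogate values for low signals. The authors' deposited series table holds a ratio, the processed intensity over the array's 75th percentile to 3 decimals, as found from its values (column medians 0.076 to 0.098). Flags of the deposited files marked spots well above background, saturated or outlying, and 5 to 9 outlying spots per array were left out.

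Here log2 processed intensity, centred on the 75th percentile of its array (467.5, 577, 405 and 498, in sample order), was used. Spots of a probe were averaged, and a probe counted as well above background where most of its spots did. Probes were named from a file other than that of 4T1-A replicate 1, some of whose names a spreadsheet had altered, through RefSeq accession (22951), symbol (9768) or the file's name (8455). Each gene was its probe with the highest mean and was tested where its signal was well above background on each array of 1 sub-line or both, with a value on all 4. Limma 3.58.1 (lmFit and eBayes, 2-sided, degrees of freedom 2 residual and 5.73 prior), run in R 4.3.3 with version 1.17.8 of data.table, gave p-values adjusted by Benjamini-Hochberg (threshold 0.05). SEs of the 10 genes came from the same model over all probes. The fit was tested on simulated data. The alternatives were normexp (offset 50), quantile normalization, scaling to the median, no background filter, the mean of a gene's probes, the authors' values, leaving out each array and a replicate block. All arrays shared a slide, so none was fitted as a block.

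The 10 genes, the lists and the motifs were chosen with earlier results of these data known. The interferon and kappaB motifs were shortened by 1 letter after a first search with longer forms. Named are the 10 genes with every probe, each list's called genes (up to 4 per direction) and brightest gene not called, the 5 genes nearest in pattern to Casp1 and to Il18, and their 5 neighbours on either side. Gsdmd, Txnip, P2rx7, Il1r1, Il1rap, Il1r2, Il18r1, Il18rap, Traf6, Cxcl1, Cxcl2, Il6, Nlrc4, Naip1, Naip5 and Naip6 were named for their role, after their values were seen.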

Additional observations from a re-analysis of the deposited data

How the results depend on the processing

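The signs of the differences of Casp1, Casp4, Il18, Il1a, Aim2 and Il1rn held in all 11 alternatives. The arrays of these genes did not overlap between sub-lines, so leaving out an array could not change the sign. The replicate block and no filter could not change it either, so only the remaining alternatives tested it. Of those, the authors' values are nearly the same ratios as the main ones. The signs of Il1b, Nlrp3 and Pycard did not hold, and Il33, at surrogate values, has no sign. Differences moved by more than the SD between replicates in 8 of 10 genes with normexp, 8 with scaling to the median, 5 with quantile normalization and 1 with the mean of the probes. Leaving out an array, the replicate block and no filter cannot move a difference by more than that SD, by construction. The count of called genes (main 1133, 646 higher and 487 lower) was 511 with normexp (231 higher, 280 lower), 730 with quantile normalization (266 and 464), 271 with no filter on background (97 and 174) and 1071 with scaling to the median (189 and 882). It ranged from 310 without 4T1-S replicate 2 to 1827 without 4T1-A replicate 2, and was 359 without 4T1-S replicate 1. Leaving an array out leaves a lone array, assumed to vary like the other pair. For the pathway lists the count of 7 was 2 with normexp, 2 with no filter, and 2 (without 4T1-S replicate 2) to 9 (without 4T1-A replicate 2) with 1 array left out, 4 of them without 4T1-S replicate 1. With the number as a replicate block the counts were 3683 (2517 higher, 1166 lower) and 19. Same-numbered arrays deviated together (r = 0.42 across genes, which are not independent replicates), but with 2 pairs the labels' numbers are not shown to pair them. The cause of these changes was not tested. Casp1, Il1a, Aim2, Il1rn, Nlrp3, Il1b and Il33 were not well above background on some or all arrays, which limits them. Il18 was well above background on every array but dim in 4T1-S (0.104 and 0.110). Its difference moved from -3.13 to -1.93 with normexp. The brighter probe of Pycard was also dim on all arrays (0.0765 to 0.127).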
